A study of Mus musculus with 18 samples.

Results

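Gene expression was compared between hemibrains of mice homozygous for human APOE2 (APOE2/APOE2) and mice homozygous for human APOE3 (APOE3/APOE3), all 12 months old and labelled C57bl/6. The comparison used the 12 libraries of these genotypes, 6 per genotype with 3 females and 3 males each, of the 18 libraries in the series. The other 6, from APOE4/APOE4 mice of the same age, were in the fit to estimate the spread between animals, and their levels are given for Oscar and Mfn2 at the end. Both genotypes are targeted replacements, so by design the control mice too carry a human APOE allele in place of the mouse gene. A replaced allele acts in every cell that uses the Apoe locus, and the labels do not say how many founder lines were bred or whether the mice shared litters. Titles of APOE2 mice end in no letter or in c, and those of APOE3 mice in e, f or g. The labels do not explain these letters, so what they mark and the genotype cannot be told apart.

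Apolipoprotein E is the main lipid carrier of the brain. Astrocytes make most of it, microglia make more under stress, and neurons take up its particles through receptors of the LDL receptor family. APOE3 is the common human allele, while the APOE2 protein binds the LDL receptor poorly and its carriers have a lower risk of Alzheimer's disease. The title of the series concerns neuronal endosomes and the release of exosomes, and lists of endosome and exosome genes were therefore followed.

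Library totals ran from 49545646 to 59394503 counts in APOE2 and from 43818967 to 50382463 counts in APOE3. Mitochondrial transcripts took 3.31% to 4.73% of the counts in APOE2 and 3.35% to 3.83% in APOE3. The entry for mouse Apoe (chromosome 7, 19696109 to 19699188, GRCm38) had a lowest, median and highest level of 36.2, 39.9 and 42.3 CPM, counts scaled to library size, in APOE2 and 36.6, 42.8 and 45.1 CPM in APOE3. These levels overlapped and the entry was not called (adjusted p = 0.451, edgeR). They count only reads that aligned to the mouse sequence and so are not the level of the human transcript.

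Of 18891 genes tested with edgeR's quasi-likelihood test, 738 (3.91%) were called at an adjusted p under 0.05, 359 of them (1.9%) higher and 379 (2.01%) lower in APOE2. Most calls were of modest size. Fitted changes passed 2-fold for 210 genes, 91 higher and 119 lower, and stayed under 0.5 on the log2 scale for 355. The median log2 fold change over all genes was 0.0034. The CPM of the 6 APOE2 and 6 APOE3 mice did not overlap for 611 genes (3.23%), with APOE2 above for 1.43% and below for 1.8% of the genes tested, and 505 of the 611 were called. In the authors' deposited table, 921 genes had an adjusted p under 0.05, 427 higher and 494 lower, and 723 of the 738 edgeR calls were among them with the same sign.

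**Figure D1:**
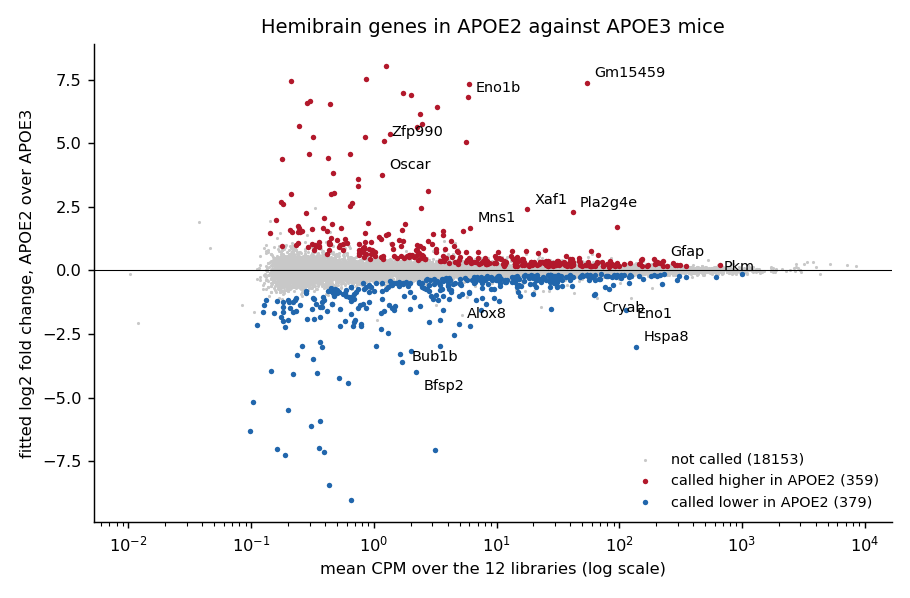
Fitted log2 fold change of APOE2 over APOE3 (y axis) against the mean CPM over the 12 libraries (x axis, log scale), 1 point per gene tested. The 359 genes called higher are red and the 379 called lower are blue, and the large changes lie mostly at low levels, with Hspa8, Gm15459, Eno1, Pla2g4e and Xaf1 as abundant exceptions.

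The abundant genes with the largest decreases were Hspa8 and Eno1, and both have near-identical copies in the genome that changed the other way. Hspa8 (chromosome 9, 40800984 to 40810087) encodes HSC70, the chaperone that uncoats clathrin vesicles. Its lowest, median and highest levels were 25.5, 31.2 and 35.5 CPM in APOE2 and 221, 238 and 276 CPM in APOE3. Every APOE2 mouse lay far below every APOE3 mouse (log2 fold change -2.99, SE 0.07, adjusted p = 2.74e-18). Gm15459 (chromosome 5, 5781615 to 5783555), a processed pseudogene of Hspa8, stood at 98.2, 109 and 118 CPM in APOE2 and at 0.485, 0.653 and 0.846 CPM in APOE3. Its genotypes did not overlap either, in the opposite direction (log2 fold change 7.37, SE 0.09, adjusted p = 5.39e-25).

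The sequences below are shown because single-end reads of these libraries are only as long as the 50 base windows that the copies share with their genes. Each line gives a stretch of 80 bases of the gene and the matching stretch of its copy in the GRCm38 reference, read 5′ to 3′ along the transcript, with the bases that differ in capitals. Hspa8 is from chr9:40801967-40802046 (exon 2, plus strand), Gm15459 from chr5:5783432-5783511 (minus strand), Hdac1 from chr4:129522975-129523054 (exon 5, minus strand) and Gm10093 from chr17:78491984-78492063 (plus strand). Rnf26 is from chr9:44112418-44112497 (exon 1, minus strand), Gm9008 from chr6:76497100-76497179 (minus strand), Cyb5r4 from chr9:87042785-87042864 (exon 8, plus strand) and Gm11868 from chr4:18845119-18845198 (minus strand).
Hspa8: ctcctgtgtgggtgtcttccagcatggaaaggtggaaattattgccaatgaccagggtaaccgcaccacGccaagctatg
Gm15459: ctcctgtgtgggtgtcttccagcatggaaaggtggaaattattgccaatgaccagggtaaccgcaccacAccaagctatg
Hdac1: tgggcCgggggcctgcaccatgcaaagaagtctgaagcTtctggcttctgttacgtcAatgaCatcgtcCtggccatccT
Gm10093: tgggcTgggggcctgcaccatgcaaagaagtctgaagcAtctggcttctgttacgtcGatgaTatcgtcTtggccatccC
Rnf26: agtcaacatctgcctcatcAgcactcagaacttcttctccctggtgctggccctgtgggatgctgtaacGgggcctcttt
Gm9008: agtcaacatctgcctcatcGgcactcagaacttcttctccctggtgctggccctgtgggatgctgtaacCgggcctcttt
Cyb5r4: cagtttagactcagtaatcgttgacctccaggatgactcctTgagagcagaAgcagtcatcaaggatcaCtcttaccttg
Gm11868: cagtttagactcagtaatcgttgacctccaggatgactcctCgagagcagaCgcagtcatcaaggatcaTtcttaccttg

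Counted from 1 at the 5′ end of the gene's transcript, Hspa8 and Gm15459 differ in this stretch by G484A, and they differ by 5 substitutions over 1941 aligned positions in all. Gaps in the alignments are left out of these counts. Of all windows of 50 bases in the Hspa8 transcript, 70.0% are also found in Gm15459. This transcript has 2394 bases and that of Gm15459 has 1941, so some windows have no counterpart. Among the opposite pairs described below, the share ran from 2.63% (Gapdh and Gm5335) to 70.1% (Znf41-ps and Zfp992). Rnf26 and Gm9008 differ in the stretch by A1027G and G1077C, of 17 substitutions over 2322 aligned positions, and Cyb5r4 and Gm11868 differ by T797C, A807C and C825T, of 23 over 1485. Hdac1 and Gm10093 differ by 9 substitutions over 1444 aligned positions, 6 of them in the stretch shown. How the deposited counts treated reads that match a gene and its copy equally well is not given in the sources used here, so the level of each single entry is uncertain.

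In all, 19 pairs of called entries were similar in sequence and changed in opposite directions. Within these pairs the lower entry is termed the gene and the higher one the copy, whatever their annotated type. The direction of each is thus fixed by the naming. The pairs were formed by 13 genes and 14 copies, 7 of the copies processed pseudogenes. The unprocessed pseudogene Znf41-ps counts as a gene, and the protein-coding Zfp990, Zfp992 and Zfp993 count as copies. Several of these pairs match zinc finger genes of 1 cluster on chromosome 4 with each other. The search covered the 700 called genes with a transcript, and similar pairs that changed in the same direction were not counted. Eno1, the glycolytic enzyme enolase 1, stood at 51.0, 58.4 and 61.8 CPM in APOE2 and at 162, 170 and 175 CPM in APOE3 (log2 fold change -1.57, SE 0.05, adjusted p = 9.75e-17). Its copy Eno1b was at 10.6, 11.7 and 12.8 CPM in APOE2 and between 0.0393 and 0.242 CPM in APOE3, and a processed pseudogene, Gm5855, was at 5.16 to 7.54 CPM against 0.0209 to 0.121 CPM. Neither copy overlapped between the genotypes. Eif3j1, a subunit of the translation initiation factor eIF3, stood at 1.13, 1.24 and 1.69 CPM in APOE2 and 7.06, 7.94 and 8.19 CPM in APOE3, while Eif3j2 on chromosome 18 stood at 4.40, 4.63 and 5.87 CPM against 0.0202, 0.0819 and 0.154 CPM. The Eif3j1 and Spg11 genes overlap on chromosome 2 (122028546 to 122056598 and 122053520 to 122118386), and Eif3j2 lies beside the Spg11 copy Gm3650 on chromosome 18 (43475418 to 43477796 and 43472816 to 43475169). Gm3650 had 136 reads over the 6 APOE2 libraries and 0 over the 6 APOE3 libraries, which makes it at least 40.6-fold higher when APOE3 is set to a summed floor of 3 reads. Spg11, a protein of lysosome reformation mutated in hereditary spastic paraplegia, fell by 0.34 on the log2 scale (SE 0.05).

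Further pairs were found by the same rule. Tma7, a ribosome-associated protein, fell by 1.57 on the log2 scale (SE 0.08). Its copy Gm15610 had 553 reads in APOE2 and 2 in APOE3, a ratio of 248 with an exact 95% interval of 68.3 to 2051 that covers counting error only. Hdac1, a histone deacetylase, fell by 0.87 (SE 0.08) and Gm10093 rose by 3.32 (SE 0.26). Rnf26, an endosome-positioning ubiquitin ligase, fell by 0.73 (SE 0.07) and Gm9008 rose by 6.98 (SE 0.26). Cyb5r4, a cytochrome b5 reductase, fell by 0.56 (SE 0.05) and Gm11868 rose by 6.15 (SE 0.26), and Cnot8, a deadenylase subunit, fell by 0.24 (SE 0.04) while Gm18860 rose by 5.34 (SE 0.23). Gapdh and Gm5335 formed the weakest pair, and leaving out 1 library lost each of the 2 calls in 10 of 12 fits, with adjusted p up to 0.123 for Gapdh and 0.127 for Gm5335. Gm5335 was also not called by DESeq2 (0.0845), by limma voom (0.0518), without a filter on low counts (0.128) or with the 12 libraries alone (0.0750). A cluster of zinc finger genes on chromosome 4 was mixed. Zfp984, Zfp991 and Znf41-ps were lower (log2 fold changes -1.68, -1.90 and -4.08), and Zfp990, Zfp992 and Zfp993 were higher (5.09, 1.20 and 1.65).

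Counts of each gene and of all entries similar to it, called or not, were then summed into 1 entry and tested in the same way. A read moved from one member of the set to another therefore does not change the sum. If reads that match several members were left out of the deposited counts, the sums miss them too. Each set was built around an entry already called lower in these libraries, so lower sums follow in part from that choice. Cnot8 alone averaged 38.0 CPM in APOE2, against 40.7 CPM for its sum. The summed Hspa8 set of 10 entries stood at 125, 142 and 156 CPM in APOE2 and 223, 240 and 279 CPM in APOE3 and remained lower (log2 fold change -0.81, SE 0.06, adjusted p = 2.43e-09). The summed Eno1 set of 5 entries was at 66.9, 76.98 and 81.8 CPM against 163, 170 and 175 CPM (log2 fold change -1.17, SE 0.05, adjusted p = 4.62e-14). Neither sum overlapped between the genotypes. The sum for Tma7 fell by 1.01, for Hdac1 by 0.49, for Eif3j1 by 0.34, for Spg11 by 0.31, for Cyb5r4 by 0.20 and for Cnot8 by 0.14, all called. The sums for Rnf26 (log2 fold change -0.16, adjusted p = 0.194) and Gapdh (-0.12, adjusted p = 0.272) were not called. The zinc finger sum had a log2 fold change of 0.39 and an adjusted p of 0.168, or 0.0439 when the 12 libraries were fitted alone.

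**Figure D2:**
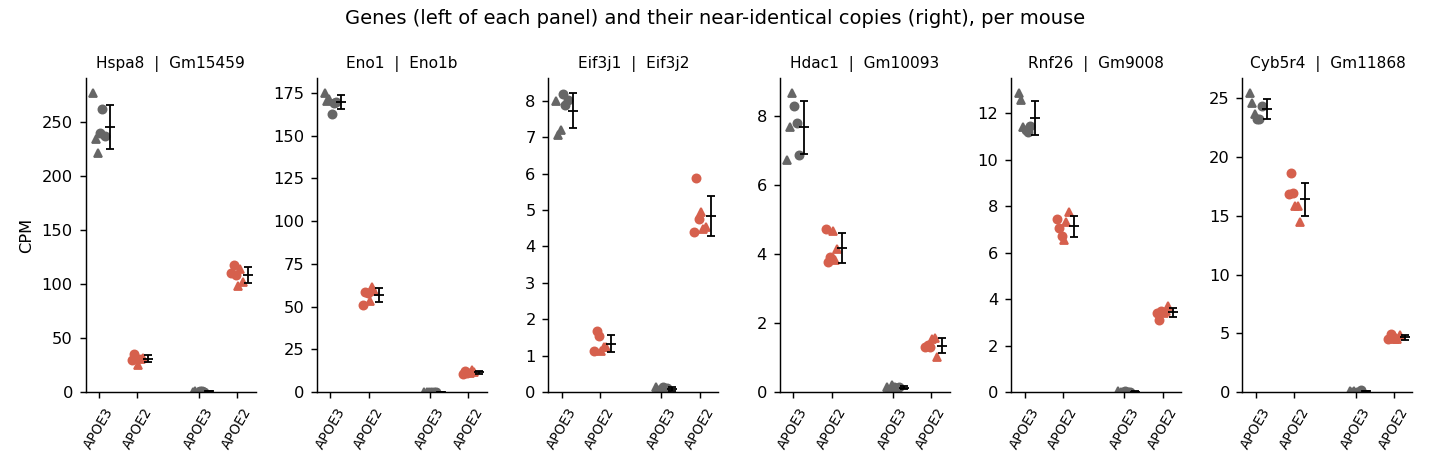
CPM (y axis) of 6 genes and, to their right in each panel, a similar copy, with 1 point per mouse (circle female, triangle male) and the mean with its SD (n = 6). In each panel the gene is lower in APOE2 while the copy, near 0 in APOE3, is higher. The pairs were chosen for these opposite calls.

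Among genes with no such pair, the phospholipase Pla2g4e and the interferon-induced Xaf1 had the largest increases above 10 CPM. Pla2g4e (chromosome 2, 120166412 to 120245335), a cytosolic phospholipase A2 that makes N-acyl phospholipids, stood at 60.2, 69.6 and 77.96 CPM in APOE2 and 11.7, 14.4 and 15.7 CPM in APOE3. The genotypes did not overlap (log2 fold change 2.29, SE 0.13, adjusted p = 3.91e-10). Its neighbour Pla2g4b (120033417 to 120043030), another cytosolic phospholipase A2, went the other way, from 0.775, 1.20 and 1.42 CPM in APOE3 to 0.150, 0.283 and 0.461 CPM in APOE2, without overlap (log2 fold change -1.94, SE 0.22, adjusted p = 1.15e-06). Xaf1 (chromosome 11, 72301629 to 72313733), a pro-apoptotic factor, stood at 26.7, 29.9 and 34.9 CPM in APOE2 and 5.40, 5.71 and 5.85 CPM in APOE3 (log2 fold change 2.40, SE 0.06, adjusted p = 4.79e-18). The cilium gene Tekt1, whose annotated span (72344722 to 72362442) lies next to Xaf1, rose by 0.83 (SE 0.10).

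Masp2, Oscar and Igkc also rose. Masp2, a protease of the lectin pathway of complement, stood at 2.80, 4.43 and 5.36 CPM in APOE2 and 0.586, 0.767 and 0.904 CPM in APOE3 (log2 fold change 2.46, SE 0.19, adjusted p = 1.77e-09). Oscar, an immunoglobulin-like receptor of myeloid cells, was at 1.497, 2.26 and 2.58 CPM against 0.110, 0.142 and 0.228 CPM (log2 fold change 3.76, SE 0.20). Igkc, the kappa light chain of antibodies, ranged from 1.46 to 6.02 CPM in APOE2 and from 0.706 to 0.988 CPM in APOE3 (log2 fold change 1.83, SE 0.31, adjusted p = 0.00118). Both genes were separate between the genotypes, and Igkc varied more among the APOE2 mice than among the APOE3 mice.

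Mns1, Sytl1 and Fxyd2 rose by 1.53 to 1.67 on the log2 scale. Mns1, a structural protein of motile cilia, stood at 7.95, 9.22 and 10.7 CPM in APOE2 and 2.46, 2.90 and 3.36 CPM in APOE3 (log2 fold change 1.67, SE 0.09). Sytl1, which binds Rab27 and docks vesicles, was at 5.11, 5.31 and 6.20 CPM against 1.19, 1.88 and 2.35 CPM (1.55, SE 0.11). Fxyd2, the gamma subunit that regulates the sodium pump, was at 6.65, 7.69 and 9.98 CPM against 2.58, 2.75 and 2.90 CPM (1.53, SE 0.10). In all of these the lowest APOE2 mouse exceeded the highest APOE3 mouse. Scarcer genes that rose were Exd1 (log2 fold change 1.39) and Spocd1 (1.30), both of the piRNA pathway of germ cells, Myh8 (1.37), a myosin heavy chain of developing muscle, E2f2 (1.21), a cell cycle transcription factor, and the galectin Lgals4 (1.16).

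Decreases beyond the copy pairs were largest in scarce genes. Bfsp2, a filament protein of the lens, had a lowest, median and highest level of 0.123, 0.237 and 0.422 CPM in APOE2 and 3.87, 4.16 and 4.72 CPM in APOE3 (log2 fold change -3.98, SE 0.18). Bub1b, a kinase of the mitotic checkpoint, was at 0.205, 0.241 and 0.332 CPM against 2.07, 3.12 and 4.88 CPM (-3.62, SE 0.20). The chemokine Ccl28 was at 0.221, 0.288 and 0.376 CPM against 1.44, 2.54 and 5.33 CPM (-3.30, SE 0.36). None of these genes overlapped between the genotypes, although Ccl28 spread widely in APOE3. Tnfrsf8, which encodes the lymphocyte receptor CD30, fell by 3.17 (SE 0.18), and Dcdc2b, a doublecortin family member, by 2.03 (SE 0.15).

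Lipid and sugar handling genes were also among the decreases. Alox8 (chromosome 11, 69183932 to 69197843), a lipoxygenase that acts on arachidonic acid, stood at 1.55, 1.91 and 2.07 CPM in APOE2 and 7.10, 8.26 and 8.75 CPM in APOE3 (log2 fold change -2.10, SE 0.09, adjusted p = 4.05e-14). Alox12b, a lipoxygenase of the skin barrier whose gene lies close by (69156989 to 69169792), was at 2.63, 3.22 and 3.81 CPM against 6.03, 6.55 and 7.56 CPM (-1.02, SE 0.11). Slc2a5, the fructose transporter GLUT5 that microglia use, was at 1.15, 1.35 and 1.91 CPM against 4.86, 5.63 and 5.98 CPM (-1.96, SE 0.11). All 3 were separate between the genotypes.

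The remaining decreases named by the rule came from several functions. Lyrm7, an assembly factor of respiratory complex III, stood at 4.29, 4.56 and 5.36 CPM in APOE2 and 11.1, 11.8 and 12.3 CPM in APOE3 (log2 fold change -1.33, SE 0.06, adjusted p = 3.52e-13). It was clear of overlap by more than the spread within either genotype. Tmem88, a membrane inhibitor of Wnt signalling, fell by 1.503 (SE 0.14), Rsg1, a small GTPase of ciliogenesis, by 1.37 (SE 0.11), and Megf6, a protein with EGF repeats, by 1.16 (SE 0.12). Map3k6, a stress-activated kinase, fell by 1.14 (SE 0.22). Its gene (chromosome 4, 133240818 to 133252929) ends just before that of Sytl1 (133253090 to 133263113), which rose.

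**Figure D3:**
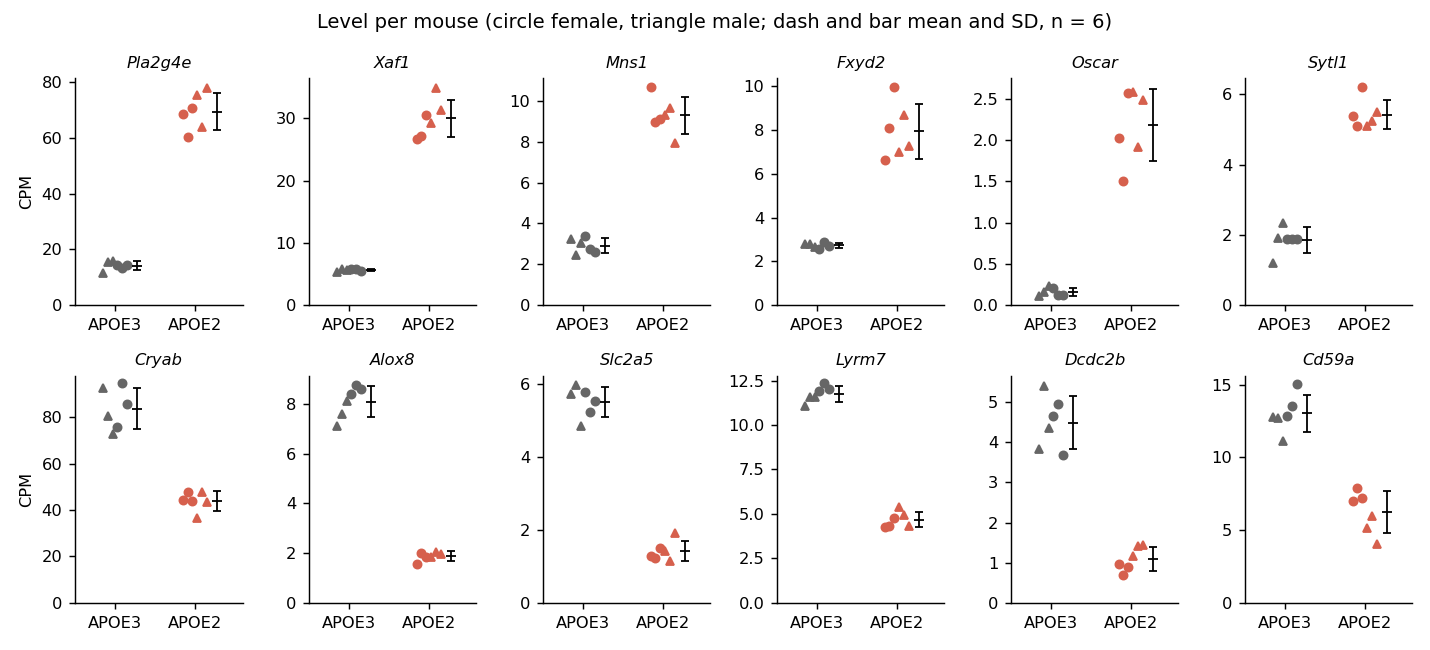
CPM (y axis, from 0) of 12 genes in each of the 6 APOE3 and 6 APOE2 mice (circle female, triangle male), with the mean and SD to the right. The upper row holds genes called higher in APOE2, such as Pla2g4e at 60.2 to 77.96 CPM against 11.7 to 15.7 CPM, and the lower row genes called lower, and no panel has overlapping groups.

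The most abundant called genes described here changed by little. Ywhae, the 14-3-3 epsilon adaptor, stood at 624, 711 and 773 CPM in APOE2 and 593, 605 and 627 CPM in APOE3, with overlap (log2 fold change 0.22, SE 0.04, adjusted p = 0.0027). Pkm, the pyruvate kinase, was at 503, 570 and 608 CPM against 646, 681 and 699 CPM (-0.25, SE 0.05, adjusted p = 0.000888), without overlap. The auxiliary sodium channel subunits Scn2b (-0.21, SE 0.04) and Scn4b (-0.36, SE 0.05) both fell, and their genes are neighbours on chromosome 9 with Fxyd2 nearby. Scn4b ranged from 241 to 285 CPM in APOE2 and from 306 to 362 CPM in APOE3.

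Gfap, the filament protein of reactive astrocytes, stood at 218, 259 and 293 CPM in APOE2 and 171, 201 and 231 CPM in APOE3 (log2 fold change 0.36, SE 0.08, adjusted p = 0.0080), with overlap. Hmgcs1, a cholesterol synthesis enzyme, was at 273, 306 and 339 CPM against 225, 242 and 268 CPM (0.30, SE 0.06, adjusted p = 0.0047), without overlap. Smaller increases were in Zfp106 (0.22), Sptb (0.21), Ckmt1 (0.18) and Gpr158 (0.17), which encode an RNA-binding zinc finger protein, a beta spectrin, mitochondrial creatine kinase and an orphan-type receptor. The calls of Clasp2 (0.16), Gad2 (0.21), Rnf112 (-0.26) and Mfn2 (-0.15) were lost in 6, 8, 3 and 9 of the 12 fits that left out 1 library. For Rnf112 these were APOE2 replicates 2 and 5 and APOE3 replicate 5 (adjusted p = 0.0503 to 0.0543). The adjusted p reached 0.0975 for Clasp2, 0.0945 for Gad2 and 0.0887 for Mfn2.

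Called genes were unevenly placed along the genome. By chromosome, 13.3% of the tested genes were called on chromosome 9 (135 of 1016) and 11.8% on chromosome 4 (131 of 1107), against 3.91% of all tested genes. In 12 of 274 stretches of 10 Mb, at least 15% of 10 or more tested genes were called, and these lay on chromosomes 2, 4, 9, 11 and 13. They held 933 tested genes (5.11%) and 230 of the 700 called genes with a position (32.9%), 102 higher and 128 lower. Since dense stretches were defined by their calls, a larger share of calls inside than outside follows from the definition. The densest ran from 140 to 150 Mb of chromosome 4, where 20 were higher and 30 lower of 108 tested (46.3%), among them Masp2, Tnfrsf8 and the zinc finger cluster. From 40 to 50 Mb of chromosome 9, the stretch of Hspa8, Scn2b, Scn4b, Fxyd2 and Rnf26, 31 of 101 were called. On chromosome 2 from 120 to 130 Mb, which holds Pla2g4e, Pla2g4b, Exd1, Eif3j1 and Spg11, 34 of 130 were called. Called genes of both directions lay in each dense stretch except from 60 to 70 Mb of chromosome 4, with 5 higher and 0 lower. Outside the dense stretches 470 of 17340 genes (2.71%) were called, 240 higher and 230 lower, and Xaf1, Oscar, Eno1, Alox8, Slc2a5, Sytl1 and Bfsp2 lie outside. Their own stretches had fewer calls than the 15% set for a dense one but more than 2.71%, at 14.0% for Sytl1, 12.3% for Alox8, 10.5% for Xaf1, 10.3% for Bfsp2, 8.602% for Oscar and 6.09% for Eno1 and Slc2a5. Each of these stretches was looked at because it holds a gene picked for its call, so the excess follows in part from that choice. Stretch edges were fixed, and Eno1 (chromosome 4, 150236721 to 150248879) lies just past the 150 Mb edge of the densest stretch. Its place outside therefore depends on where that edge was set.

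**Figure D4:**
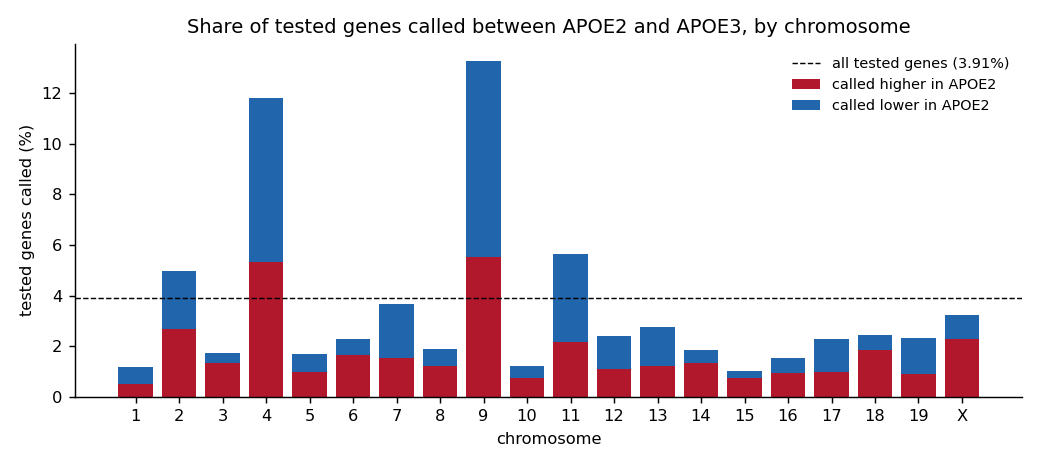
Share of the tested genes of each chromosome that was called higher (red) or lower (blue) in APOE2, with the share over all tested genes (3.91%) as a dashed line. Chromosomes 9 and 4 stand at 13.3% and 11.8%, and both directions contribute on each.

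Lists of genes by compartment, pathway and cell type were described by their called members and their median, beside 3.91% called and a median of 0.0034 over all genes. Of all 18891 genes tested, 3179 had an unadjusted p under 0.05 with edgeR, and unadjusted counts in the lists are to be read beside that share. The shares of all genes called by the DESeq2 and limma voom fits are not given here, so their list counts lack such a background. The fit without APOE2 replicate 6 called 1026 genes in all, more than the 738 of the main fit. In bulk tissue, fewer cells of a type and less RNA per cell cannot be told apart. Trafficking lists gave few calls. Of 34 early endosome genes, Rab4a, a GTPase of rapid recycling, rose from 32.4, 33.5 and 34.2 CPM in APOE3 to 35.4, 38.8 and 43.0 CPM in APOE2, without overlap (log2 fold change 0.23, SE 0.05, adjusted p = 0.0036). The Rab5 effector Rabep1 also rose (0.19, SE 0.05), but lost its call without APOE2 replicate 1 or 2 or APOE3 replicate 4 or 5 (adjusted p up to 0.0649). Of 32 recycling and late endosome genes Vps11, a core subunit of the tethering complexes HOPS and CORVET, was called. It stood at 74.2, 79.2 and 89.1 CPM in APOE2 and 92.2, 94.7 and 97.4 CPM in APOE3 (-0.25, SE 0.04, adjusted p = 0.000306).

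Among 39 exosome release genes Sytl1 rose and the annexin Anxa6 fell by 0.18 (SE 0.04), and among 37 clathrin genes only Hspa8 was called. Glb1, the lysosomal beta-galactosidase, was the sole call among 40 lysosomal enzymes, at 19.3, 19.99 and 21.9 CPM in APOE2 and 24.9, 24.9 and 28.0 CPM in APOE3 (log2 fold change -0.35, SE 0.05, adjusted p = 5.36e-05). Of 18 subunits of the V-ATPase, the proton pump that acidifies these organelles, Atp6v1g1 rose by 0.29 (SE 0.05). Atp6v0c had a log2 fold change of -0.25 and lost its call in 8 of 12 fits without 1 library (adjusted p up to 0.100). Of 20 retromer, 27 ESCRT and 31 autophagy genes edgeR called 0, with 6, 6 and 4 under 0.05 before adjustment, while DESeq2 called 1, 0 and 0 and limma voom 0 of each. Without APOE2 replicate 6, edgeR called 2 ESCRT, 1 autophagy, 4 recycling and late endosome and 4 exosome release genes, and 2 lysosomal enzymes. Medians of these 9 lists lay between -0.01 and 0.06.

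Lipid genes were mixed. In cholesterol synthesis 22 of 28 genes had a negative log2 fold change (median -0.06), but the calls were split between Hmgcs1, which rose, and Sc5d, a late desaturase of the pathway, which fell from 73.7, 75.5 and 82.5 CPM in APOE3 to 57.2, 59.1 and 66.3 CPM in APOE2 (-0.35, SE 0.05). Both lie in dense stretches. In the phospholipase and eicosanoid list 7 of 28 genes were called. Pla2g4e and Alox5 (0.85, SE 0.17), the 5-lipoxygenase of leukotriene synthesis, rose. Pla2g4b, Alox8, Alox12b, the cyclooxygenase Ptgs1 (-0.23, SE 0.05) and the leukotriene C4 synthase Ltc4s (-0.53, SE 0.11) fell. Ch25h, which makes 25-hydroxycholesterol, was called among 31 lipid efflux genes (0.997, SE 0.24), but not without APOE2 replicate 2 or APOE3 replicate 5 (adjusted p up to 0.0616). Of 26 genes of APP processing and tau the protease Mme was called (0.23), and of 29 sphingolipid genes the phosphatase Sgpp2 (0.16). Mme lost its call in 11 of 12 fits without 1 library (adjusted p up to 0.112), and Sgpp2 without APOE2 replicate 1 or 2 or APOE3 replicate 3 or 5 (up to 0.0779), without a filter on low counts (0.0881) and without the sex term (0.0840). Without APOE2 replicate 6, edgeR called 4 sphingolipid, 4 cholesterol synthesis, 3 lipid efflux and 2 APP and tau genes.

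Microglial genes had calls in both directions. Of 25 homeostatic markers, Selplg fell from 25.2, 29.6 and 30.1 CPM in APOE3 to 20.2, 22.5 and 23.3 CPM in APOE2 (log2 fold change -0.37, SE 0.06) and Laptm5 from 34.4, 35.5 and 38.4 to 26.3, 28.8 and 30.7 CPM (-0.33, SE 0.06), both without overlap. Ltc4s also fell, and Siglech had a log2 fold change of -0.22 and lost its call in 7 of 12 fits without 1 library (adjusted p up to 0.0810). The list's median was -0.07, and its summed level overlapped, at 1790 to 2314 CPM in APOE2 and 1975 to 2249 CPM in APOE3. Of 26 markers of disease-associated microglia, the integrin Itgax rose from 0.354, 0.590 and 0.807 to 0.888, 1.30 and 1.57 CPM (1.12, SE 0.17, adjusted p = 7.39e-05). Cybb was higher (0.86) and B2m lower (-0.35). Cybb was not called without APOE2 replicate 2 or 5 or APOE3 replicate 4 or 5 (adjusted p up to 0.0679), and B2m not without APOE2 replicate 1 (0.0547) or without a filter on low counts (0.0746). The disease-associated list had 5 calls without APOE2 replicate 6. Of 23 complement genes Masp2 rose and Cd59a, an inhibitor of complement lysis, fell from 11.1, 12.8 and 15.04 to 4.05, 6.51 and 7.91 CPM (-1.08, SE 0.09, adjusted p = 5.88e-09).

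In the interferon list 22 of 32 genes had a negative log2 fold change (median -0.19), while Xaf1 was the exception among the calls. Oasl1 (-1.24, SE 0.29), a scarce sensor-family gene at or under 0.487 CPM in the APOE3 mice, fell. Oasl2 (-0.57), Oas2 (-0.65) and Ifi27 (-0.21) were called lower, but lost their calls in 9, 8 and 6 of 12 fits without 1 library (adjusted p up to 0.113, 0.103 and 0.125). Oasl2 was also not called by limma voom (0.0763) or without a filter on low counts (0.115). Without APOE2 replicate 6, 8 genes of the list were called, and without 1 of the APOE2 replicates 1, 2, 4 and 5 or APOE3 replicate 4 it was 2. Of 19 genes of antigen presentation H2-Eb1, a class II chain, rose by 0.70 (SE 0.14) and B2m, the class I light chain, was lower.

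Astrocyte identity genes gave 0 calls of 20 with edgeR, DESeq2 and limma voom, with 3 at an unadjusted p under 0.05. Of 20 reactive astrocyte genes Gfap and Cd109, a TGF-beta co-receptor, rose, the latter from 1.94, 2.30 and 2.67 to 3.29, 4.17 and 4.96 CPM (log2 fold change 0.83, SE 0.12). In the oligodendrocyte list 22 of 26 genes had a positive log2 fold change (median 0.08), with Bcas1 (0.47, SE 0.09), a gene of newly formed oligodendrocytes, and the connexin Gjc3 (0.23) called by edgeR and 6 genes by DESeq2. Gjc3 lost its call without APOE2 replicate 1 or 2 or APOE3 replicate 3 or 6 (adjusted p up to 0.0596), and 5 genes of the list were called without APOE2 replicate 6. The summed oligodendrocyte level was 6790 to 9029 CPM in APOE2 and 6039 to 7403 CPM in APOE3.

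Choroid plexus, the epithelium that makes cerebrospinal fluid, gave calls in 1 direction, and its summed level was high in 3 of the 6 APOE2 mice. All 22 genes had a positive log2 fold change, from 0.09 to 0.83 (median 0.40), and 4 (18.2%) were called by edgeR. These were the prolactin receptor Prlr (0.76, SE 0.15), the calmodulin-like Calml4 (0.72, SE 0.16), the collagen Col8a1 (0.48, SE 0.10) and the copper transporter Slc31a1 (0.23, SE 0.06). Prlr stood at 12.2, 22.7 and 30.8 CPM in APOE2 and 10.0, 11.2 and 18.3 CPM in APOE3, so the genotypes overlapped. Prlr was not called without the sex term (adjusted p = 0.0691), and Slc31a1 lost its call in 8 of 12 fits without 1 library (up to 0.110). The summed level ran from 992 to 2033 CPM in APOE2 and from 1066 to 1442 CPM in APOE3. APOE2 replicates 1, 4 and 5 stood above all APOE3 mice, at 1766, 1794 and 2033 CPM, while replicates 2, 3 and 6 were at 1177, 992 and 1186 CPM. Leaving out 1 library gave 3 to 7 calls in the list, the most without APOE2 replicate 3. Amounts of choroid plexus in the dissected hemibrain were not recorded in the labels, and their part in the result was not tested. Of 29 genes of ependymal cilia Mns1 and Tekt1 rose and Ccdc153 fell by 1.01 (SE 0.12), around a median of 0.04.

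Immediate early genes, which neurons switch on when active, gave 1 call of 26, a share close to that of all genes. The log2 fold change was negative for 24 of 26 genes (median -0.49), and edgeR called Ier5 alone (-0.24), which lost its call in 8 of 12 fits without 1 library (adjusted p up to 0.116). Between 0 and 4 genes were called when 1 library was left out, the most without APOE3 replicate 2. DESeq2 called 8 of them (its share over all genes is not given here), limma voom 1, and 14 had an unadjusted p under 0.05 with edgeR. Egr1, a transcription factor of this group, stood at 86.7, 149 and 181 CPM in APOE2 and 127, 231 and 313 CPM in APOE3 (-0.68, SE 0.21, adjusted p = 0.102). Levels overlapped between the genotypes, and the summed list ran from 871 to 1330 CPM in APOE2 and from 1015 to 2087 CPM in APOE3.

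Stress and energy genes gave few calls. Of 32 heat shock genes Hspa8 and Cryab were called. Cryab, the small heat shock protein alpha B-crystallin of glia and lens, stood at 36.4, 44.1 and 47.8 CPM in APOE2 and 72.9, 83.0 and 94.7 CPM in APOE3, without overlap (log2 fold change -0.93, SE 0.07, adjusted p = 5.88e-10). Its gene lies in a dense stretch of chromosome 9. Of 28 genes of the unfolded protein response Sesn2, a stress-induced inhibitor of mTORC1, fell by 0.33 (SE 0.07). The disulfide isomerase Pdia3 had a log2 fold change of 0.24 and lost its call in 8 of 12 fits without 1 library (up to 0.0868), and 4 genes of the list were called without APOE2 replicate 6. In glycolysis 4 of 32 genes were called, Eno1b higher and Eno1, Gapdh and Pkm lower. All 7 mitochondrially encoded genes measured had a positive log2 fold change (median 0.26), but edgeR called 0 of them, although 5 had an unadjusted p under 0.05, and 2 were called by DESeq2 and 0 by limma voom. Without APOE2 replicate 6, the APOE2 library with the lowest mitochondrial share, edgeR called 5 of the 7, but 0 in every other fit that left out 1 library. Their summed level was 26913 to 39759 CPM in APOE2 and 26696 to 31830 CPM in APOE3. None of 34 nuclear genes of oxidative phosphorylation was called by edgeR, DESeq2 or limma voom, nor reached an unadjusted p under 0.05.

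Blood genes had a median of 0.44 over 16 measured, with Igkc and Jchain, the joining chain of secreted antibodies (0.93, SE 0.20), called. The summed level overlapped, at 444 to 634 CPM in APOE2 and 443 to 518 CPM in APOE3. Among neurons the GABA-synthesising enzyme Gad2 was called of 26 interneuron genes, and edgeR called 0 of 30 excitatory synapse genes (4 at an unadjusted p under 0.05, 2 by DESeq2, 0 by limma voom). Region markers bear on how the hemibrain was cut. EdgeR called 0 of 16 cortical and hippocampal, 0 of 14 striatal and 0 of 16 cerebellar and bulb markers, with 6, 0 and 4 at an unadjusted p under 0.05 and 0, 0 and 1 called by DESeq2. The summed markers of thalamus, midbrain and hypothalamus were at 500 to 696 CPM in APOE2 and 492 to 549 CPM in APOE3 (median log2 fold change 0.16). Tcf7l2 was called there, but not by limma voom (0.0551), with DESeq2 size factors (0.0524), at a minimum of 1 CPM (0.0606), without the sex term (0.0508), with the 12 libraries alone (0.0715) or in 9 of 12 fits without 1 library (adjusted p up to 0.151). In that list 3 genes were called without APOE2 replicate 6. Over the 15 of 43 lists in which edgeR called no gene, among them endothelial cells, fibroblasts, antioxidant and circadian genes, 60 of 326 members had an unadjusted p under 0.05, and DESeq2 called 10 and limma voom 0. Over all genes tested, 3179 of 18891 had an unadjusted p under 0.05 with edgeR. Without APOE2 replicate 6 edgeR called 15 of the 326, in a fit that called 1026 genes in all. Without APOE3 replicate 6 edgeR called 3 fibroblast genes.

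**Figure D5:**
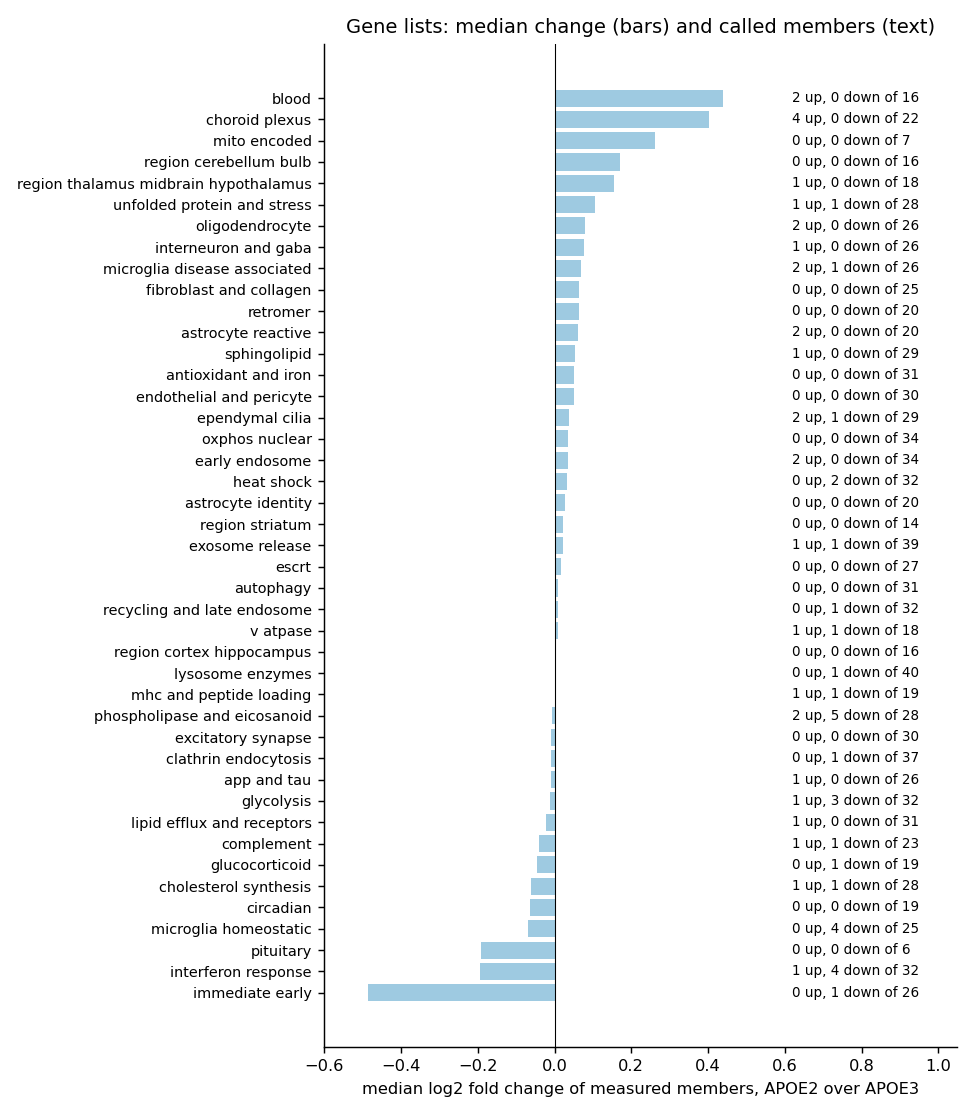
Median log2 fold change of APOE2 over APOE3 (x axis) of the measured members of 43 gene lists, ordered by the median, with the number called higher and lower by edgeR. Blood, choroid plexus and mitochondrially encoded genes lie at the upper end (0.44, 0.40 and 0.26) and immediate early genes at the lower (-0.49).

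The difference between the genotypes was compared between the sexes. EdgeR called 0 genes for the sex by genotype interaction, with 1094 at an unadjusted p under 0.05, limma voom called 0 (1059 unadjusted) and DESeq2 called 7 (993 unadjusted). All 47 genes named as the largest or most abundant calls had the same sign in females and males. Pla2g4e had a log2 fold change of 2.25 in females and 2.34 in males, Xaf1 of 2.30 and 2.503, and Hspa8 of -2.93 and -3.06. The widest gap among the examples was in Bfsp2, at -4.45 in females and -3.63 in males. Of the 47 genes, 41 did not overlap between the genotypes over both sexes together, and 43 kept their call under each setting that used both sexes. Since the 47 were picked from the same libraries for the size or level of their calls, these counts follow in part from that choice. Among all 738 calls 505 did not overlap, and among all genes tested 3.23%.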

How the data were processed

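Poly(A) RNA of hemibrains was sequenced as single reads with a stranded kit, and all libraries shared the same lanes, per the labels' protocols. The authors deposited raw counts per gene symbol. The submitters' processing notes name Trimmomatic, STAR 2.7.0, featureCounts and DESeq2, with the builds GRCm38 and mm10. Strand setting, handling of reads with several matches, annotation release and DESeq2 model: not given in the sources used here. Per gene, the authors' deposited DESeq2 table gives a mean signal over all libraries, a log2 fold change, a Wald score, a p-value and an adjusted p-value, per the file headers, and only its calls were used. 26 of 52459 symbols had been turned into dates (0.304% to 0.322% of counts) and were left out.

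The test was edgeR 4.0.16 (R 4.3.3), quasi-likelihood with robust estimation, TMM scaling and filterByExpr, on all 18 libraries with genotype and sex as terms, with calls at a Benjamini-Hochberg p under 0.05. Levels are TMM-scaled CPM, and where 3 are given they are the lowest, median and highest of 6 mice. Replicates of a genotype differed by more than counting noise (chi-square per degree of freedom 5.79 to 42.0). Nothing in the labels says that mice of a genotype were unrelated, and replicate numbers only name a mouse.

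Positions come from GENCODE release 21 of GRCm38, which matched 47982 symbols (91.5%) to 1 gene. Copies were found with blastn 2.17.0 between transcripts, at 90% identity over at least 50% of the shorter. The sequences printed are those of the reference transcripts. Genes were named by a rule: of called genes averaging 1 CPM or more, the 15 that rose most and the 15 that fell most, the 15 most abundant, the 10 that changed most each way outside dense stretches, up to 4 per list by p, and Apoe, leaving out predicted genes, pseudogenes and genes with no position. A few that it takes are not reported here. Copies, further called members of lists and Pla2g4b, Alox5, Ltc4s, Ptgs1 and Oasl2 were named after their values were seen. The genes, lists and alternatives were chosen with earlier results of these data known. Alternatives were DESeq2 1.42.0, limma 3.58.1 voom, DESeq2 size factors, other filters on low counts, no sex term, the 12 libraries alone, the contrast within each sex and leaving out each library.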

Additional observations from a re-analysis of the deposited data

Results flagged for a closer look

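Within each genotype, the named genes and the summed levels of the lists were checked for a single library far from the other 5 by Dixon's criterion, which chance meets in about 1 of 20 groups. Of 182 groups, 14 met it. Among genes, the Apoe entry was lowest in APOE3 replicate 3 (36.6 CPM), Eif3j2 highest in APOE2 replicate 2 (5.87 CPM), Sytl1 highest in APOE2 replicate 3 (6.20 CPM) and Tmem88 lowest in APOE3 replicate 3 (2.21 CPM).

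Among summed lists, APOE3 replicate 6, a female, was the highest of its genotype for exosome release (2320 CPM), lysosomal enzymes (6056 CPM), phospholipase and eicosanoid genes (1507 CPM), endothelial and pericyte markers (957 CPM), blood genes (518 CPM) and antioxidant and iron genes (3584 CPM). APOE3 replicate 1 was the highest for early endosome (2461 CPM) and clathrin genes (8816 CPM), and APOE3 replicate 5 for choroid plexus (1442 CPM). Circadian genes were lowest in APOE2 replicate 2 (1862 CPM).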

How the results depend on the processing

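The main counts were 738 called, 359 higher and 379 lower. The contrast within each sex came from 1 fit of all 18 libraries with 1 mean per genotype and sex, not from separate fits. It called 382 genes in females (157 higher, 225 lower) and 368 in males (164 higher, 204 lower), with 3 mice per group. A minimum of 1 CPM in 6 libraries left 238 called higher. Leaving out 1 library gave 574 to 1026 calls, 252 to 575 higher and 316 to 451 lower. The upper end came without APOE2 replicate 6, the APOE2 library with the lowest mitochondrial share, with 693 of the 738 calls among the 1026; the cause was not tested. The share of positioned calls in dense stretches, 32.9% in the main fit, was 15.2% in females, 17.1% in males, 16.6% without a filter on low counts and 26.9% to 34.1% without 1 library. For the sex interaction DESeq2 called 7 genes and edgeR 0. No call among the named genes, and no sum of a gene with its copies, changed sign under the settings run. Signs of the other calls were not compared. No paired analysis was possible because the replicate numbers follow accession order and the titles carry a mouse number of their own. Of the calls, 188 had a mean under 1 CPM. With edgeR, Clasp2 (adjusted p = 0.0628), Ifi27 (0.0566), Pdia3 (0.0623), Siglech (0.0686) and Oasl2 (0.0517) were not called without the sex term, Mfn2 (0.0622) not without a filter on low counts, and Gad2 (0.0503) and Mme (0.0616) not at a minimum of 1 CPM.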

Other observations

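2 abundant called genes fall outside the naming rule and were picked after their values were seen. The predicted gene 2900052N01Rik averaged 147 CPM over the 6 APOE2 mice and 45.7 CPM over the 6 APOE3 mice (log2 fold change 1.69, SE 0.07, adjusted p = 4.43e-14, edgeR). Crocc, which encodes the ciliary rootlet protein rootletin, averaged 41.7 CPM in APOE2 and 82.4 CPM in APOE3 (log2 fold change -0.98, SE 0.14, adjusted p = 0.000174, edgeR).

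By annotated type, 37 of 573 tested pseudogenes were called (6.46%), 27 higher and 10 lower in APOE2, against 576 of 15239 protein-coding genes (3.78%), 280 higher and 296 lower. Of 674 lincRNAs 13 were higher and 21 lower (5.04%), and of 638 antisense RNAs 9 were higher and 16 lower (3.92%), whose reads may be shared with the opposite strand since the strand setting is not given. Oscar was at 2.18 CPM on average in APOE2 and 2.48 CPM in APOE4, against 0.159 CPM in APOE3. Mfn2 was at 280 CPM in APOE4, above the 246 CPM of APOE3, while it was lower in APOE2.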
